A study of Homo sapiens with 18 samples.

Results

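The comparison set HSC-3 cells against CAL27 cells while both were on ICG-001, and asked which genes separated the lines under the drug and whether each separation was wider, smaller, absent or turned round on the vehicle. Its members were the 3 HSC-3 arrays and the 3 CAL27 arrays whose titles give 10 μM ICG-001, 6 of the 18 arrays of the series, read over all 23786 probesets. HSC-3 and CAL27 are established human lines of oral squamous cell carcinoma (OSCC), used in the study as a metastatic and a non-metastatic example, so each phenotype is represented by 1 line. The 4 groups were HSC-3 on ICG-001, CAL27 on ICG-001, HSC-3 on 0.1% DMSO and CAL27 on 0.1% DMSO, with 3 wells in each, harvested 48 to 64 h after treatment. The remaining 6 arrays were HSC-3 cells given 25 nM CTNNB1 siRNA or a non-targeting control siRNA. Whether the wells were separate cultures is not stated, and the p-values thus measure spread between wells.

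ICG-001 is a small molecule that binds CREB-binding protein (CBP), a transcriptional coactivator, and blocks its contact with β-catenin, the nuclear effector of Wnt signaling. Oral squamous carcinoma lines keep much of the program of stratified epithelium, with basal keratins, desmosomes, S100 proteins and secreted antimicrobial proteins, and they differ from one another in immune and inflammatory genes. A drug given to both lines can leave an existing difference as it was, or change it in either direction.

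Array medians lay between 4.73 and 4.77 (log2), and replicates of a group correlated at 0.988 or more over the tested probesets. Of 14 markers of squamous basal identity on the array, 10 were above the median on all 6 ICG-001 arrays, KRT5 and KRT14 among them, while KRT6A and TP63 were not analysed here. Markers of other cells were mostly under the median on all 6 ICG-001 arrays, which held for 9 of 12 markers of fibroblasts, 9 of 11 of leukocytes, 5 of 6 of melanocytes, 6 of 8 of neurons and glia and 5 of 10 of endothelium. Their mean levels per array were 3.66 to 3.76 in HSC-3 and 3.57 to 3.59 in CAL27 for fibroblasts, 3.52 to 3.81 in HSC-3 and 4.07 to 4.23 in CAL27 for endothelium, and 3.40 to 3.49 in HSC-3 and 3.68 to 3.72 in CAL27 for leukocytes, and their part in the gaps was not tested.

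On ICG-001 the lines differed at 4281 of 13493 probesets tested (31.7%), with 2231 higher in HSC-3 (16.5%) and 2050 lower (15.2%). A gap here is the mean log2 level of the 3 HSC-3 arrays minus that of the 3 CAL27 arrays, and it was called at a limma adjusted p of at most 0.01 with at least a 1.5-fold difference. On DMSO 2031 probesets were higher in HSC-3 (15.1%) and 2037 were lower (15.1%). With the drug 4281 probesets were called and without it 4068, and 2620 probesets were called the same way under both treatments, which is 61.2% of the ICG-001 calls and 64.4% of the DMSO calls. The median absolute gap was 0.38 on ICG-001 and 0.36 on DMSO, and 408 probesets differed by over 4-fold on ICG-001, against 440 on DMSO.

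Whether a gap had changed was tested as the gap on ICG-001 minus the gap on DMSO in the same fit, with the same thresholds. The gap changed for 1650 probesets (12.2%), becoming more positive, that is toward HSC-3, for 921 (6.83%) and more negative for 729 (5.4%). Among them the gap widened for 179 (1.33%), with a call under both treatments in 1 direction and a larger gap on ICG-001, and narrowed for 185 (1.37%). It opened for 512 (3.79%), which were called on ICG-001 and not on DMSO, 280 of them higher in HSC-3 (2.08%) and 232 lower (1.72%). It closed for 444 (3.29%), called on DMSO and not on ICG-001, and reversed for 42 (0.311%), called under both treatments in opposite directions. Of the 42 reversed gaps, 32 were higher in HSC-3 on ICG-001 and lower on DMSO, and 10 ran the other way. The other 288 changed without a called gap under either treatment. For 1388 of the 1650 changed gaps (84.1%), the difference between ICG-001 and DMSO means was larger in size in HSC-3 than in CAL27. The same share was not taken over all tested probesets, so whether it is particular to changed gaps is not known. The study reported more genes responding to the drug in HSC-3 than in CAL27.

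**Figure D1:**
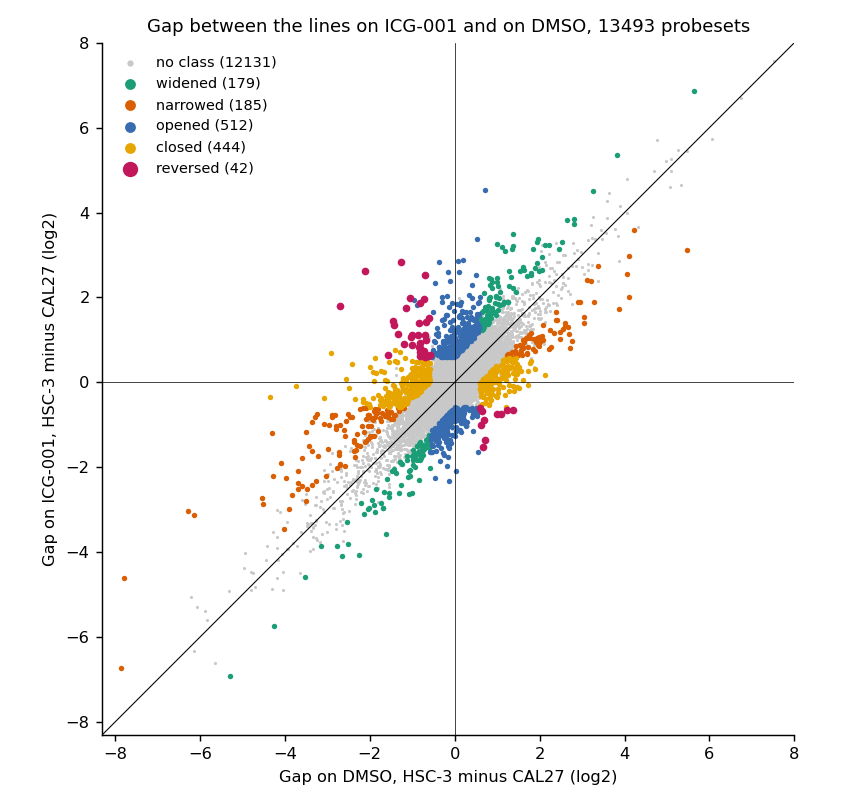
Each point is a probeset, with its gap between the lines on DMSO (x axis, log2) and on ICG-001 (y axis, log2), coloured by class, and the diagonal marks equal gaps. Most points lie along the diagonal, while the 512 opened and 42 reversed gaps lie off it, and 32 of the reversed ones sit at the upper left, lower in HSC-3 on DMSO and higher on ICG-001.

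Of the 15 largest positive gaps on ICG-001, leaving aside provisional symbols and genes of the Y chromosome, 6 widened, 1 opened and 8 had no called change. PXDN, which cross-links collagen IV, read 9.14, 9.21 and 9.17 in HSC-3 and 2.35, 2.21 and 2.38 in CAL27 on ICG-001, a 116-fold difference (gap 6.86 ± 0.0772, SE; limma adjusted p = 1.19e-13). Its gap on DMSO was 5.63, so it widened on the drug by 1.22 ± 0.109 (limma adjusted p = 1.38e-05). The efflux transporter ABCC2 (gap 5.36 on ICG-001 and 3.81 on DMSO), the organic cation exporter SLC47A2 (4.52 and 3.26), the homeobox factor IRX4 (3.84 and 2.81), the Wnt ligand WNT5A (3.83 and 2.65) and the gelatinase MMP2 (3.73 and 2.82) widened as well. The change for IRX4 missed the adjusted p without any 1 of 6 arrays (0.0106 to 0.0126). AKR1C2, an aldo-keto reductase of steroids, opened, with a gap of 4.54 on ICG-001 against 0.71 on DMSO.

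For the other 8 of these 15 genes the lines were apart under both treatments, and the change of gap did not pass. They were AKR1C3 (gap 5.72 on ICG-001 and 4.77 on DMSO), the simple-epithelial keratin KRT19 (5.44 and 5.46), TRIML2 (5.26 and 5.09), the phosphate transporter SLC20A2 (4.97 and 4.69), CLCA2 (3.99 and 4.07), the sialic acid esterase SIAE (3.89 and 3.27), the microtubule-binding DPYSL2 (3.88 and 3.59) and the semaphorin SEMA5A (3.70 and 3.21). For KRT19 the change of gap was -0.02, with a 95% interval of -0.53 to 0.48. For AKR1C3 it was 0.94 with an interval of -0.09 to 1.97, and the call was gained without CAL27 DMSO replicate 1 (1.44, limma adjusted p = 0.0016), the array on which AKR1C3 read 1.99 against 3.82 and 3.17 on the other two CAL27 DMSO arrays. The AKR1C genes are close copies of one another, so their probesets may share signal. In 11 of the 15 genes all CAL27 arrays on ICG-001 were under their array medians.

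The 15 largest negative gaps on ICG-001 included antigen presentation, interferon-induced and chemokine genes, and all 15 genes were under the array median in HSC-3. NDRG2 read 3.77, 2.54 and 2.35 in HSC-3 and 9.94, 9.77 and 9.74 in CAL27 on ICG-001 (gap -6.92 ± 0.284, SE; 121-fold; limma adjusted p = 2.35e-09). It widened against a DMSO gap of -5.29, but this change missed the adjusted p without any 1 of 11 of the 12 arrays (limma adjusted p 0.0119 to 0.0248). CCL2, the chemokine that attracts monocytes, read 2.59, 2.57 and 2.76 in HSC-3 and 9.51, 9.29 and 9.32 in CAL27, a 106-fold difference, and narrowed against DMSO, where HSC-3 read 2.27, 2.30 and 2.30 and CAL27 9.86, 10.24 and 10.36. ALDH1L2, a mitochondrial folate enzyme, widened (-5.74 on ICG-001 and -4.25 on DMSO), and the serpin SERPINB4 narrowed (-4.61 and -7.80).

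For 11 of these 15 genes the change of gap did not pass. The class II invariant chain CD74 had gaps of -6.61 on ICG-001 and -5.65 on DMSO (change -0.96, limma adjusted p = 0.0101), a change that passed and would read as widened without HSC-3 DMSO replicate 1 (-0.73) or replicate 2 (-1.10) and in 6 other alternatives. The class II chain HLA-DRA had -6.33 and -6.13, the cytochrome oxidase-associated COXFA4L3 -5.59 and -5.83, the lysosomal protease CTSH -5.39 and -5.87, the interferon-induced IFI27 -5.29 and -6.07, and the interferon-induced tetherin BST2 -4.90 and -5.31. The cytidine deaminase APOBEC3G had -5.04 and -6.22, with a change of 1.18 that passed only without CAL27 DMSO replicate 3 (1.40, limma adjusted p = 0.00665) and with array weights (1.05). The remaining members were the amino acid transporter SLC38A5 (-4.89 and -4.80), CEP15 (-4.88 and -4.05), POTEF (-4.87 and -4.29), which belongs to a family of near-identical copies, and the formin DIAPH2 (-4.82 and -4.71). Without HSC-3 ICG-001 replicate 2 the change for CEP15 passed at -1.14 (limma adjusted p = 0.0073), and the gap then read as widened.

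The 8 reversed gaps with the largest change, provisional symbols left aside, were each lower in HSC-3 on DMSO and higher on ICG-001. AGR2, a protein disulfide isomerase of secretory epithelium, had levels of 7.79, 7.85 and 7.90 in HSC-3 and 5.34, 5.17 and 5.17 in CAL27 on ICG-001. On DMSO the same gene read 4.29, 4.07 and 4.64 in HSC-3 and 6.40, 6.42 and 6.49 in CAL27. The arrays of the lines did not overlap under either treatment, and the gap was 2.62 on ICG-001, against -2.11 on DMSO (change 4.73 ± 0.167, SE; limma adjusted p = 5.74e-08). SERPINB13, a serpin that inhibits cathepsins, read 7.66, 7.63 and 7.76 in HSC-3 and 4.54, 4.77 and 5.23 in CAL27 on ICG-001, while on DMSO it read 5.59, 5.79 and 5.98 in HSC-3 and 7.05, 7.08 and 6.99 in CAL27.

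The same turn was found for KRT15, a keratin of basal cells (gap 2.00 on ICG-001 and -1.05 on DMSO), for PGLYRP4, which recognises bacterial peptidoglycan (1.44 and -1.46), for the collagenase MMP13 (1.75 and -1.15), for the epithelial ETS factor ELF3 (1.34 and -1.43) and for the lectin-like receptor KLRC3 (1.96 and -0.73). S100A7A reversed too (1.80 and -2.71), and without CAL27 ICG-001 replicate 1 its gap on ICG-001 missed the adjusted p (1.59, limma adjusted p = 0.0101). S100A7A is a near-identical copy of S100A7, and KLRC3 is close to other KLRC genes, so their signal is uncertain. HSC-3 means were higher on ICG-001 than on DMSO for all 8 genes, and CAL27 means were lower on ICG-001 for all 8. Over the 32 reversals of this direction, the HSC-3 mean was higher on ICG-001 than on DMSO in 32 and the CAL27 mean was lower in 20. Among the 10 reversals of the opposite direction, the named serpin SERPINB7 had a gap of -0.99 on ICG-001, against 0.63 on DMSO.

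The 8 closed gaps of the largest change, chosen likewise, were all higher in CAL27 on DMSO. Over all 444 closed gaps, HSC-3 was lower on DMSO in 258 and higher in 186. SAA2, an acute-phase serum amyloid, read 7.23, 7.13 and 7.38 in HSC-3 and 7.71, 7.76 and 7.30 in CAL27 on ICG-001, whereas on DMSO it read 4.89, 4.75 and 5.16 in HSC-3 and 9.62, 9.14 and 9.12 in CAL27. The arrays overlapped on the drug only, and the gap was -0.35 on ICG-001 (limma adjusted p = 0.0756, 95% interval -0.69 to 0.00), against -4.36 on DMSO. SAA1 and SAA2 are near-identical, so their split is uncertain. S100A8, a subunit of calprotectin, read 8.80, 8.82 and 8.89 in HSC-3 and 8.67, 8.72 and 8.85 in CAL27 on ICG-001 (gap 0.09, 95% interval -0.19 to 0.37), against a gap of -2.56 on DMSO.

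The other closed genes kept a gap on ICG-001 that was under 1.5-fold or missed the adjusted p. LCN2, a lipocalin that binds bacterial siderophores, read 12.24, 12.19 and 12.17 in HSC-3 and 11.86, 11.80 and 11.85 in CAL27 on ICG-001, and the arrays did not overlap (gap 0.36, limma adjusted p = 0.00213, against -2.00 on DMSO). The gaps were 0.70 on ICG-001 and -2.92 on DMSO for S100A7 (psoriasin), 0.43 and -2.42 for the noncoding RNA LUCAT1, 0.57 and -1.89 for the chemokine CXCL2, -0.14 and -2.49 for the A20-binding TNIP3, and 0.24 and -1.92 for the orphan receptor NR4A1. S100A7 and CXCL2 sat close to the limit. S100A7 was called on ICG-001 without CAL27 ICG-001 replicate 2 (0.91) or CAL27 DMSO replicate 1 (0.70), and CXCL2 without CAL27 ICG-001 replicate 1 (0.62), and both would then read as reversed.

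**Figure D2:**
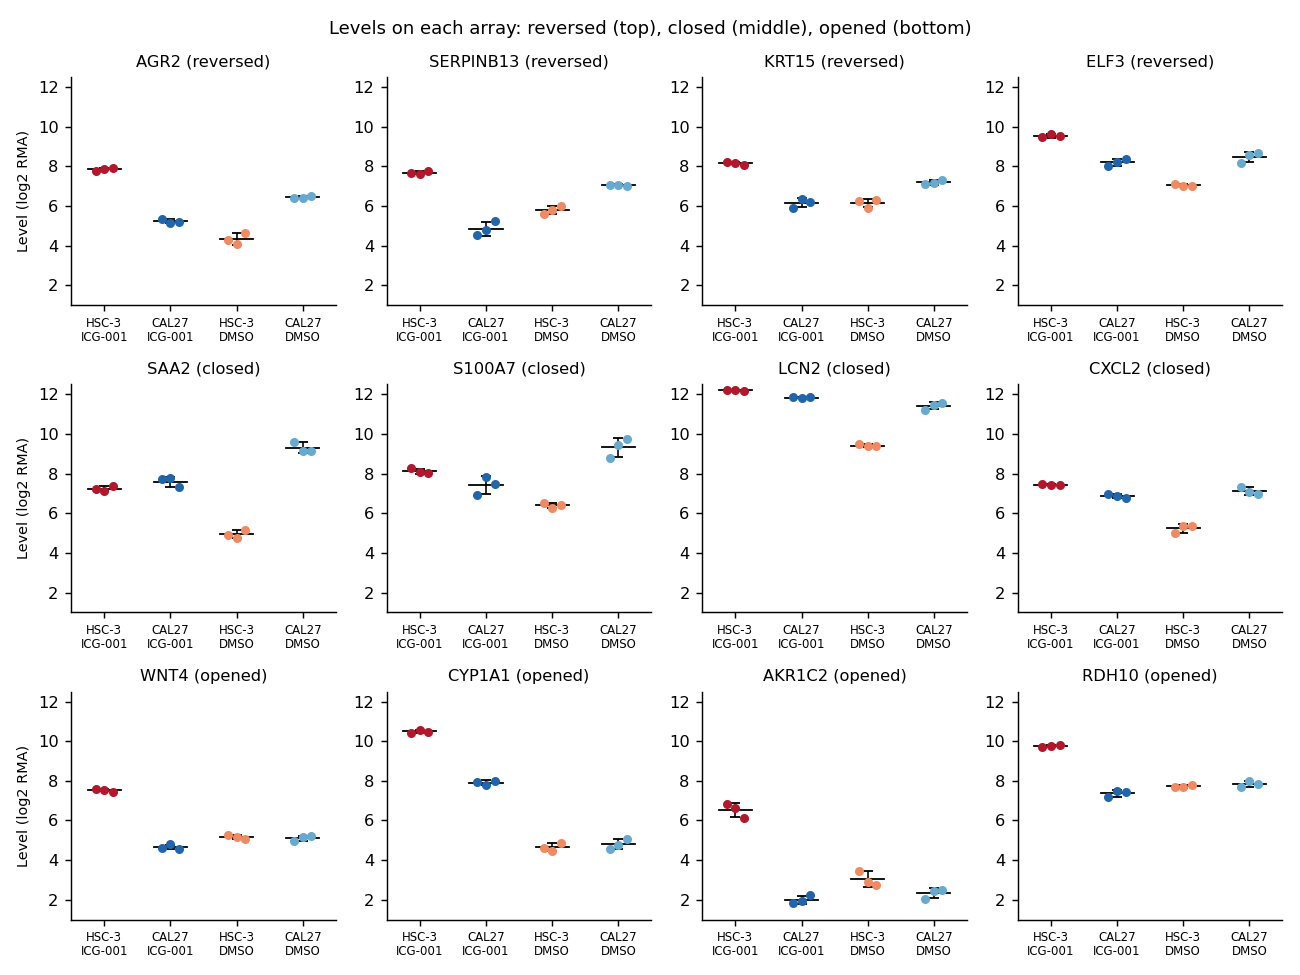
Points are single arrays (log2 RMA level) of 12 genes in HSC-3 on ICG-001, CAL27 on ICG-001, HSC-3 on DMSO and CAL27 on DMSO, with the mean as a bar and the SD as an error bar (n = 3). In the top row HSC-3 stands above CAL27 on ICG-001 and below it on DMSO, in the middle row a gap on DMSO is small on ICG-001, and in the bottom row a gap on ICG-001 is small on DMSO.

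The 8 opened gaps of the largest change, chosen likewise, were all higher in HSC-3 on ICG-001. WNT4, a Wnt ligand, read 7.59, 7.53 and 7.46 in HSC-3 and 4.64, 4.79 and 4.58 in CAL27 on ICG-001 (gap 2.86 ± 0.0857, SE; limma adjusted p = 2.34e-10). On DMSO the lines overlapped, with 5.27, 5.14 and 5.09 in HSC-3 and 4.95, 5.15 and 5.20 in CAL27 (gap 0.07). CYP1A1, the cytochrome P450 induced through the aryl hydrocarbon receptor, read 10.44, 10.58 and 10.48 in HSC-3 and 7.92, 7.79 and 8.01 in CAL27 on ICG-001. Both lines were far lower on DMSO, with 4.61, 4.45 and 4.86 in HSC-3 and 4.58, 4.78 and 5.06 in CAL27, so a gap of 2.59 stood against -0.16 on DMSO.

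AKR1C2 read 6.84, 6.64 and 6.12 in HSC-3 and 1.81, 1.94 and 2.23 in CAL27 on ICG-001, and 3.48, 2.91 and 2.75 in HSC-3 and 2.06, 2.44 and 2.52 in CAL27 on DMSO. Its arrays did not overlap on DMSO either, where the gap of 0.71 missed only the adjusted p (limma adjusted p = 0.0132). RDH10, which oxidises retinol, had gaps of 2.39 on ICG-001 and -0.11 on DMSO, the membrane mucin MUC1 2.00 and -0.29, and the aldo-keto reductase AKR1B15 2.87 and 0.20. The readthrough transcript KLRC4-KLRK1 (1.95 and -0.97) and the histone gene H2BC18 (1.83 and -0.88) opened too, both with probesets that may take signal from close copies. Their DMSO gaps were over 1.5-fold the other way and missed only the adjusted p (limma adjusted p = 0.0209 and 0.0536). H2BC18 read 5.19, 3.52 and 3.57 in HSC-3 on DMSO. Opened gaps on the lower side were smaller in change. ROR1, a receptor for Wnt ligands, read 5.77, 5.42 and 5.31 in HSC-3 and 7.54, 7.67 and 7.55 in CAL27 on ICG-001 (gap -2.09, against 0.03 on DMSO), and NT5E, the ecto-nucleotidase CD73, had gaps of -1.64 on ICG-001 and 0.55 on DMSO.

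Widened gaps of the largest change were mostly higher in HSC-3. Over all 179 widened gaps, HSC-3 was higher in 98 and lower in 81. The cytokine IL24 read 7.92, 7.90 and 7.95 in HSC-3 and 4.70, 4.79 and 4.49 in CAL27 on ICG-001, and 5.36, 5.21 and 5.39 in HSC-3 and 4.34, 4.24 and 4.41 in CAL27 on DMSO (gap 3.26 on ICG-001 and 0.99 on DMSO; change 2.27 ± 0.12, SE; limma adjusted p = 3.66e-07). The glycoprotein GPNMB (3.48 on ICG-001 and 1.37 on DMSO), ADHFE1 (3.19 and 1.12), filaggrin FLG of the cornified layer (3.10 and 1.18), MFAP3L (3.22 and 1.37) and SLITRK6 (3.13 and 1.35) widened likewise. On the lower side, the matrix protein EFEMP1 had gaps of -3.56 on ICG-001 and -1.62 on DMSO, and LAPTM5, a lysosomal membrane protein, -4.07 and -2.26. EFEMP1 read 7.04, 6.63 and 6.63 in HSC-3 on ICG-001, against 10.37, 10.35 and 10.28 in CAL27, and the HSC-3 mean differed from its DMSO mean by -2.14 while that of CAL27 differed by -0.20.

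The 8 narrowed gaps of the largest change were mostly lower in HSC-3, and the CAL27 mean was lower on ICG-001 than on DMSO for all 8 genes. Over all 185 narrowed gaps, HSC-3 was lower in 108 and higher in 77. SERPINB3 read 2.23, 2.76 and 2.68 in HSC-3 and 5.60, 5.47 and 5.68 in CAL27 on ICG-001, and 1.19, 1.98 and 2.26 in HSC-3 and 8.21, 7.96 and 8.10 in CAL27 on DMSO. Its gap was -3.03 on ICG-001, against -6.28 on DMSO, and SERPINB4, a near-identical copy, had -4.61 against -7.80. PIP, a secreted protein of exocrine glands (-1.19 on ICG-001 and -4.29 on DMSO), the secreted glycoprotein OLFM4 (-3.12 and -6.13), the antiprotease SERPINA3 (-0.82 and -3.30) and IDO1, which degrades tryptophan (-0.94 and -3.36), narrowed in the same way. PIP and IDO1 were under the array medians in both lines on ICG-001, so their gaps there lie between low levels. In 6 of the 8 narrowed genes the lower line was under the array medians on ICG-001. For complement factor CFB the HSC-3 level differed more between treatments. It read 9.52, 9.56 and 9.55 in HSC-3 and 10.24, 10.25 and 10.35 in CAL27 on ICG-001, and 7.16, 7.36 and 7.30 in HSC-3 and 10.45, 10.49 and 10.60 in CAL27 on DMSO. OLFML3 was the single one of the 8 that stood higher in HSC-3, with gaps of 3.12 on ICG-001 and 5.47 on DMSO.

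MicroRNA hairpin loci were examined after their values were seen. Of 301 hairpin loci tested, 39 were higher (12.96%, against 16.5% of all probesets) and 26 lower (8.64%, against 15.2%) in HSC-3 on ICG-001, and 23 were higher and 31 lower on DMSO. The gap became more positive for 20 (6.64%, against 6.83% of all) and more negative for 1 (0.332%, against 5.4% of all), and each of these 4 shares was under that of all probesets. Probesets of both clusters that encode miR-23, miR-27 and miR-24 moved toward HSC-3. The mature sequences are shown with their seeds (bases 2 to 8) in capitals (RefSeq, GRCh38.p14). The seed is shared by miR-23a and miR-23b and by miR-27a and miR-27b, while miR-205 and miR-21 share theirs with no other sequence shown. The miR-24-3p of MIR24-1 and MIR24-2 is 1 sequence. With sequences this close, probesets of either cluster may take signal from the other, so they are not independent.
hsa-miR-23a-3p, chr19:13836595-13836615, minus strand: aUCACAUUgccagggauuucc
hsa-miR-23b-3p, chr9:95085265-95085287, plus strand: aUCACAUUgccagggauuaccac
hsa-miR-27a-3p, chr19:13836447-13836467, minus strand: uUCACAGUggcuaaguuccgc
hsa-miR-27b-3p, chr9:95085505-95085525, plus strand: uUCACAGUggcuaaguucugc
hsa-miR-24-3p, chr9:95086064-95086085, plus strand: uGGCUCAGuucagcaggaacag
hsa-miR-205-5p, chr1:209432166-209432187, plus strand: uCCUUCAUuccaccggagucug
hsa-miR-21-5p, chr17:59841273-59841294, plus strand: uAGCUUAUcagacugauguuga

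MIR23B read 8.11, 8.46 and 8.39 in HSC-3 and 5.46, 5.95 and 6.01 in CAL27 on ICG-001, and 5.05, 5.10 and 5.09 in HSC-3 and 5.55, 6.04 and 5.72 in CAL27 on DMSO. Its gap reversed (2.52 on ICG-001, against -0.69 on DMSO; change 3.21 ± 0.219, SE; limma adjusted p = 2.08e-06). Its neighbours MIR27B (2.35 on ICG-001 and -0.46 on DMSO) and MIR24-1 (2.84 and -0.37) opened. In the second cluster MIR27A (3.39 and 0.53), MIR24-2 (2.59 and 0.11) and MIR23A (1.58 and -0.20) opened, as did their host transcript MIR23AHG (1.66 and 0.27). MIR21, abundant in squamous carcinomas, opened (2.04 and -0.17), and MIR205, a microRNA of stratified epithelium, reversed (1.86 and -0.82), with its host MIR205HG opened (0.98 and -0.22). MIR222 closed (0.49 on ICG-001 and -1.55 on DMSO), and MIR25 was the 1 locus that moved the other way, with a reversed gap of -0.60 on ICG-001, against 0.60 on DMSO. These probesets lie on hairpin loci, and the array does not tell precursor from mature RNA.

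**Figure D3:**
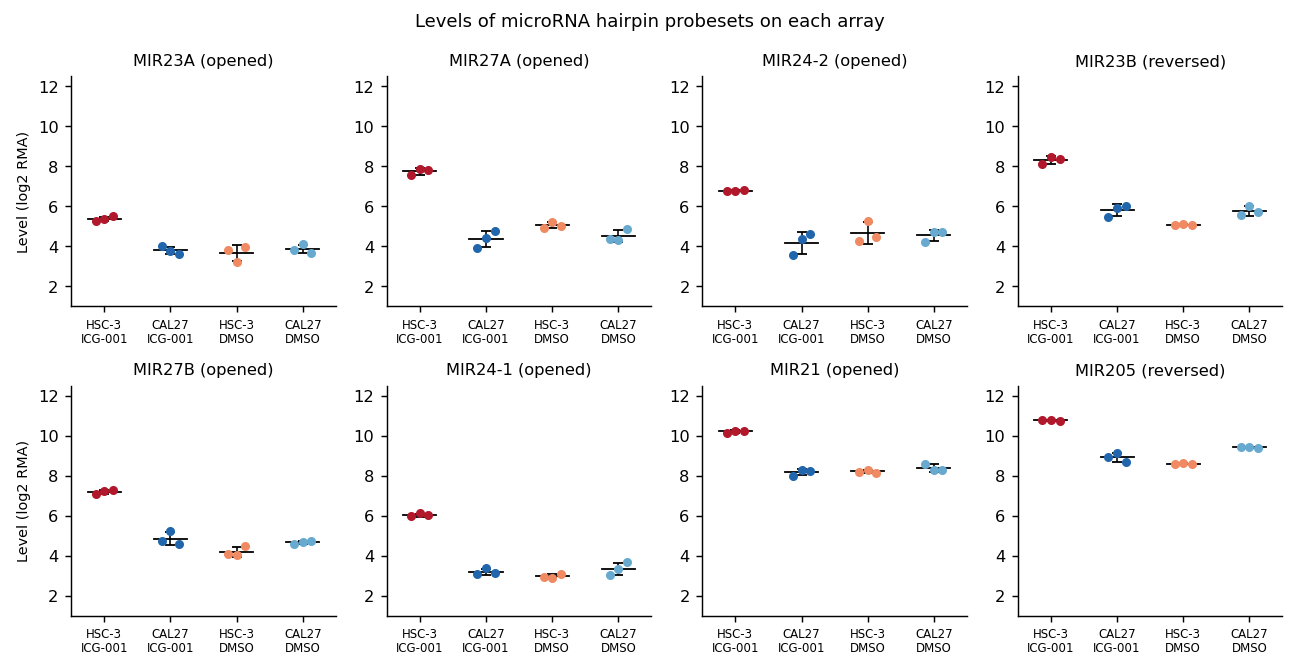
Points are single arrays (log2 RMA level) of 8 microRNA hairpin probesets in HSC-3 on ICG-001, CAL27 on ICG-001, HSC-3 on DMSO and CAL27 on DMSO, with means and SDs (n = 3). In all 8 panels the HSC-3 arrays on ICG-001 stand above those of the other 3 groups.

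In both cell cycle lists the median gap lay lower on ICG-001 than on DMSO. The members of a list are described by their counts beside all tested probesets and by their median gap, which was 0.01 on ICG-001 and 0.02 on DMSO over all tested. Of all tested, 16.5% were higher and 15.2% lower in HSC-3 on ICG-001, and 15.1% were higher and 15.1% lower on DMSO. The gap became more positive for 6.83% and more negative for 5.4%, and changed in either direction for 12.2%. Every list count below is to be read against these shares. Of 75 tested genes of G2 and mitosis, 41 were lower in HSC-3 on ICG-001 (54.7%, against 15.2% of all) and 2 were higher, whereas 5 were lower and 9 higher on DMSO. Their median gap was -0.65 on ICG-001 and -0.04 on DMSO, and the gap became more negative for 36 and more positive for 0, with 21 opened, 4 widened and 4 closed. Of 54 genes of G1/S and replication, 18 were lower in HSC-3 on ICG-001 (33.3%, against 15.2% of all) and 0 were higher. On DMSO 2 were lower and 13 higher (median gap -0.33 on ICG-001 and 0.26 on DMSO). For 31 of them the gap became more negative, with 13 opened, 8 closed and 2 widened. One G1/S gene, CCNE2, was called higher on ICG-001 without CAL27 ICG-001 replicate 1 (0.60, limma adjusted p = 0.00138).

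The kinesin KIF20A read 6.48, 6.10 and 6.26 in HSC-3 and 8.41, 8.29 and 8.21 in CAL27 on ICG-001, and 8.59, 8.40 and 8.47 in HSC-3 and 9.08, 9.02 and 9.12 in CAL27 on DMSO, so that the gap widened (-2.02 on ICG-001, against -0.59 on DMSO). The lines did not overlap under either treatment. The spindle protein PRC1 (-1.61 on ICG-001 and -0.76 on DMSO), KIF18A (-1.52 and -0.77) and the ubiquitin-conjugating UBE2C (-1.50 and -0.73) widened too. Gaps opened for the mitotic kinases PLK1 (-1.12 and 0.11), AURKA (-1.21 and -0.46) and TTK (-1.25 and -0.33), for the proliferation marker MKI67 (-1.01 and -0.24) and for topoisomerase TOP2A (-0.91 and -0.15). Among G1/S genes the helicase subunit MCM6 opened (-1.72 and -0.25), as did GINS2 (-1.25 and -0.00), UHRF1 (-0.93 and 0.14), TYMS (-0.82 and 0.11) and E2F1 (-0.62 and 0.49), while MCM5 (-1.78 and -0.79) widened. Cyclins CCNA2 (-0.05 and 0.83) and CCND1 (0.34 and 1.40) closed, from a higher level in HSC-3 on DMSO. Of 6 inhibitors of cyclin-dependent kinases, 3 were higher in HSC-3 on ICG-001 and 1 on DMSO. CDKN1A (p21) opened (1.30 and 0.45), CDKN2B opened (0.74 and -0.14), and CDKN1B (p27), with 1.40 and 0.84, had no called change. The change for CDKN1A or CDKN2B was lost in turn without CAL27 ICG-001 replicate 2, CAL27 ICG-001 replicate 3 or HSC-3 DMSO replicate 3, each of which left 1 of the 2 called. RNA came from whole wells, so fewer cycling cells and less of these RNAs per cell cannot be told apart.

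**Figure D4:**
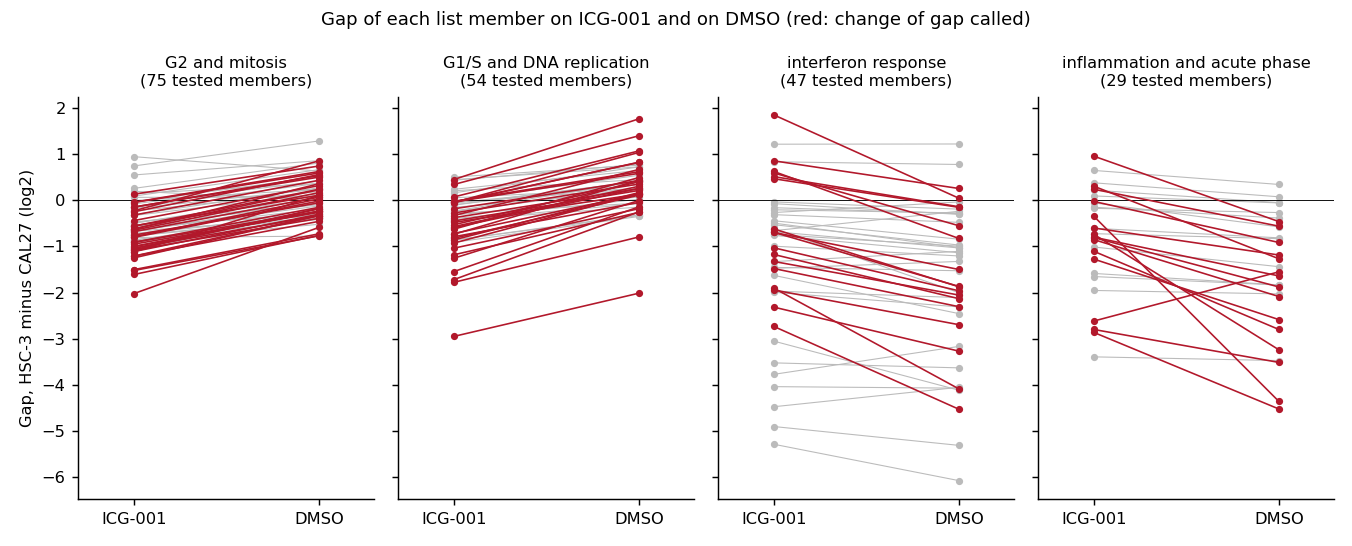
Each line joins the gap of 1 gene on ICG-001 (left) and on DMSO (right), HSC-3 minus CAL27 on the log2 scale, in 4 gene lists, with red for a called change of gap. The 36 called changes of G2 and mitosis and the 31 of G1/S run toward a lower HSC-3 level on ICG-001, while 17 called interferon genes and 14 of the 15 called inflammation genes run the other way.

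The promoters of the mitotic genes hold elements that are well known for cell cycle genes, the cell cycle genes homology region (CHR, letters TTTGAA) and the CCAAT box (letters CCAAT), searched on both strands between 250 bases before and 50 after the start (RefSeq, GRCh38.p14; 10163 tested genes matched, first listed start). CHR letters were in 66.7% of 63 promoters of G2 and mitosis, against 9.78% of all, and CCAAT in 71.4%, against 36.7%. Of 188 promoters of genes whose gap opened with HSC-3 lower, 20.2% held CHR letters, and of 206 whose gap opened with HSC-3 higher, 8.74% did. The promoter of CDC20, the activator of the anaphase-promoting complex, is shown as an example of an opened gap (-0.63 on ICG-001 and 0.36 on DMSO), with 2 CHR and 2 CCAAT matches in capitals. A match is a match of letters. The shares of the list describe its membership and do not use the gaps. The genes opened with HSC-3 lower include 21 of the G2 and mitosis list, so the 2 searches overlap.
CDC20, chr1:43358731-43359030, plus strand: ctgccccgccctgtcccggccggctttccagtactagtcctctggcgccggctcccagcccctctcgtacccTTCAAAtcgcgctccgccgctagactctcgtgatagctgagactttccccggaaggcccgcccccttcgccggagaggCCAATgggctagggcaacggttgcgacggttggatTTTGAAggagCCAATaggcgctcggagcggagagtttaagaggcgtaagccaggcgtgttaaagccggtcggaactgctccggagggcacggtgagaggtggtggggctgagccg

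In the interferon, inflammation and chemokine lists more members were lower than higher in HSC-3 under both treatments, and the median gap was smaller on the drug. Of 47 tested interferon response genes, 28 were lower in HSC-3 on ICG-001 (59.6%, against 15.2% of all) and 6 higher (12.8%, against 16.5%). On DMSO 33 were lower and 2 higher, and the median gap was -0.74 on ICG-001 and -1.32 on DMSO. The gap became more positive for 17 and more negative for 0, with 11 narrowed, 3 opened and 1 reversed, although 1 gene was called more negative in 8 of the alternatives, 3 of which left out an array (without HSC-3 ICG-001 replicate 1, HSC-3 DMSO replicate 2 or CAL27 DMSO replicate 1), and 2 were at an adjusted p of 0.05 with no fold threshold. GBP2 (-2.73 on ICG-001 and -4.53 on DMSO), the chemokine CXCL10 (-1.90 and -4.09), RSAD2 (-1.17 and -2.13) and PARP14 (-1.03 and -1.96) narrowed. The antiviral GTPase MX1 (-4.04 and -4.07) and XAF1 (-3.52 and -3.63) had no called change. TRIM22 opened in favour of HSC-3 (1.85 and 0.05), reading 8.31, 8.53 and 8.50 in HSC-3 and 6.59, 6.64 and 6.56 in CAL27 on ICG-001, and PLSCR1 reversed (0.63 and -0.83).

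Of 11 class II antigen presentation genes, 10 were lower in HSC-3 on ICG-001 and 10 on DMSO, with a median gap of -2.46 on ICG-001 and -1.56 on DMSO. HLA-DPA1 (-2.78 and -1.95) and HLA-DMB (-2.42 and -1.25) widened, and the protease CTSS closed (-0.32 and -1.32). HLA genes are polymorphic and near-identical to one another, so their probesets may differ between lines for either reason. How many class II genes were called more negative moved between 1 and 2 when single arrays were left out (7 of the 12), and reached 4 with array weights or equal array medians. Of 19 class I genes, 6 were lower on ICG-001 and 10 on DMSO, 0 were higher under either, and the gap changed for 1.

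Inflammation and acute-phase genes were lower in HSC-3 for 17 of 29 on ICG-001 (58.6%, against 15.2% of all) and 20 on DMSO, with a median gap of -0.72 on ICG-001 and -1.44 on DMSO. The gap became more positive for 14 and more negative for 1, with 9 narrowed, 3 closed, 1 opened and 1 widened. IL6 narrowed, reading 7.70, 7.63 and 7.96 in HSC-3 and 10.67, 10.59 and 10.63 in CAL27 on ICG-001, and 5.46, 5.85 and 6.01 in HSC-3 and 10.26, 10.25 and 10.38 in CAL27 on DMSO. NFKBIZ (-1.27 on ICG-001 and -2.58 on DMSO), TNFAIP2 (-1.10 and -2.80), SOD2 (-0.85 and -2.08) and complement C3 (-0.81 and -1.88) narrowed, BCL3 opened in favour of HSC-3 (0.96 and -0.46), and PTX3 widened (-2.62 and -1.55). LIF (-3.39 and -3.47) and PTGS2 (-1.95 and -2.03) had no called change. The count of 2 genes higher in HSC-3 on ICG-001, BCL3 and TNF, was 1 without HSC-3 ICG-001 replicate 1 or 2 or CAL27 ICG-001 replicate 1 or 2.

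Of 14 chemokines, 5 were lower and 3 higher in HSC-3 on ICG-001, against 10 lower and 0 higher on DMSO, and the gap became more positive for 9 (64.3%, against 6.83% of all). CXCL1 (0.87 on ICG-001 and -0.26 on DMSO), CXCL3 (1.29 and -0.42) and CCL28 (0.69 and 0.02) opened, CXCL8 (0.47 and -1.36) and CXCL16 (-0.22 and -0.81) closed, and CCL20 narrowed (-2.20 and -4.28). Promoters of the interferon list held the interferon-stimulated response element (ISRE, letters TTTCNNTTTC) in 68.4% of 38, against 2.9% of all, and those of the inflammation list held a κB motif (letters GGGNNNTTCC) in 40.9% of 22, against 7.61%. These shares describe which genes are on the lists and do not use the gaps. IFIT1, an interferon-induced RNA-binding protein that narrowed (-0.62 on ICG-001 and -1.87 on DMSO), and CXCL2, which closed, are shown as examples, with 2 ISRE matches in the first and 2 overlapping κB matches in the second in capitals.
IFIT1, chr10:89392373-89392672, plus strand: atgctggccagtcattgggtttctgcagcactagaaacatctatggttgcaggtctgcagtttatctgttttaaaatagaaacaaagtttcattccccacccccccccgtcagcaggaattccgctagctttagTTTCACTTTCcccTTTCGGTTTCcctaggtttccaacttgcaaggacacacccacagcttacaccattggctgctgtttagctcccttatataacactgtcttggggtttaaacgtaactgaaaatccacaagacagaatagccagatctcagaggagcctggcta
CXCL2, chr4:74099146-74099445, minus strand: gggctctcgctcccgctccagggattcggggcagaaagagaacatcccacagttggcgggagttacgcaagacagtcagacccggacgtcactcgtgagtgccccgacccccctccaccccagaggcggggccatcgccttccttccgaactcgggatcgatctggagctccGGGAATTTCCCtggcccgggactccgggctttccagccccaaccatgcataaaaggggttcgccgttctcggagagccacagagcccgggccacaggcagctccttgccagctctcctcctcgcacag

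Of 11 tested genes of secreted defence, 7 were lower in HSC-3 on ICG-001 (63.6%, against 15.2% of all) and 10 on DMSO. The median gap was -1.19 on ICG-001 and -2.44 on DMSO, with 4 narrowed, 2 reversed and 1 closed. The antiproteases SLPI (-1.17 and -3.51) and WFDC2 (-1.50 and -3.44) narrowed, while the ribonuclease RNASE7 (-2.44 and -2.30) had no called change. Among 15 S100 proteins, 5 were higher in HSC-3 on ICG-001 (33.3%, against 16.5% of all) and 0 lower, against 3 higher and 4 lower on DMSO. S100A9 closed (0.11 and -1.21), S100P opened (0.94 and -0.02), and S100A14 was higher in HSC-3 under both (1.27 and 1.80). Of 8 clade B serpins, 5 gaps became more positive and 1 more negative, and SERPINB9, the granzyme B inhibitor, narrowed (-2.51 and -3.48).

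Markers of squamous basal identity were higher in HSC-3 on ICG-001 for 9 of 13 (69.2%, against 16.5% of all) and lower for 0. On DMSO 5 were higher and 2 lower (median gap 0.87 on ICG-001 and 0.53 on DMSO). SOX2 (1.06 and 0.42) and TRIM29 (1.29 and 0.52) opened, the desmosomal cadherin DSG3 closed (0.49 and -0.77), and the plakophilin PKP1 stayed higher in HSC-3 with no called change (2.70 and 2.24). DSG3 read 8.74, 8.81 and 8.84 in HSC-3 and 8.37, 8.32 and 8.22 in CAL27 on ICG-001, and 7.48, 7.55 and 7.49 in HSC-3 and 8.37, 8.25 and 8.21 in CAL27 on DMSO, so that the arrays were separate under both treatments in opposite order, with a gap under 1.5-fold on the drug. Of 21 epithelial transcription factors, 9 were higher (42.9%, against 16.5% of all) and 4 lower (19.0%, against 15.2%) on ICG-001. On DMSO 5 were higher and 8 lower. KLF5 widened (1.53 and 0.85), PRDM1 opened (0.98 and -0.50), and KLF4 closed (-0.05 and -0.82).

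Of 23 mesenchymal genes, HSC-3 stood higher for 4 (17.4%, near the 16.5% of all) and lower for 9 (39.1%, against 15.2%) on ICG-001. On DMSO 6 were higher and 6 lower. Vimentin VIM (gap 2.27 on ICG-001 and 2.39 on DMSO) and fibronectin FN1 (-1.91 and -1.86) had no called change, and LOXL2 opened (-1.37 and -0.56). Among 25 matrix proteases and inhibitors, 10 were higher (40.0%, against 16.5% of all) and 5 lower (20.0%, against 15.2%) in HSC-3 on ICG-001. For 7 the gap became more positive (28.0%, against 6.83%) and for 0 more negative. The collagenase MMP1 widened, reading 6.39, 6.38 and 6.46 in HSC-3 and 3.55, 3.17 and 2.84 in CAL27 on ICG-001 (gap 3.22, against 2.13 on DMSO), MMP15 reversed (0.64 and -0.59), and MMP7 closed (0.26 and -1.72).

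NRF2 targets include genes of glutathione synthesis, of thioredoxin and of electrophile removal. Of 31 tested, 15 were higher in HSC-3 on ICG-001 (48.4%, against 16.5% of all) and 1 lower, against 7 higher and 5 lower on DMSO, and the median gap was 0.46 on ICG-001 and -0.01 on DMSO. The gap became more positive for 15 and more negative for 0, with 8 opened, 4 closed and 2 widened. GCLC, the catalytic subunit of glutathione synthesis, read 9.96, 9.77 and 9.86 in HSC-3 and 8.91, 8.81 and 8.83 in CAL27 on ICG-001, and 8.53, 8.49 and 8.51 in HSC-3 and 8.36, 8.08 and 8.14 in CAL27 on DMSO (gap 1.01 on ICG-001 and 0.32 on DMSO). Glutathione reductase GSR (1.07 and -0.07), sulfiredoxin SRXN1 (1.16 and 0.19), UGT1A6 (2.05 and 0.33) and AKR1B10 (2.53 and 0.50) opened, the cystine transporter SLC7A11 widened (1.41 and 0.62), and HMOX1 (0.21 and -0.65) and SQSTM1 (0.22 and -0.71) closed. NQO1 was higher in HSC-3 under both with no called change (1.10 and 1.34). Of 15 targets of the aryl hydrocarbon receptor, which share members with this list, 9 gaps changed. The gap became more positive for 7 (46.7%, against 6.83% of all) and more negative for 2 (13.3%, against 5.4%). CYP1B1 closed, reading 8.37, 8.60 and 8.60 in HSC-3 and 8.22, 8.39 and 8.24 in CAL27 on ICG-001, and 5.77, 5.72 and 5.77 in HSC-3 and 7.35, 7.45 and 7.47 in CAL27 on DMSO, while ALDH3A1 opened with HSC-3 lower (-1.64 and -0.56).

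**Figure D5:**
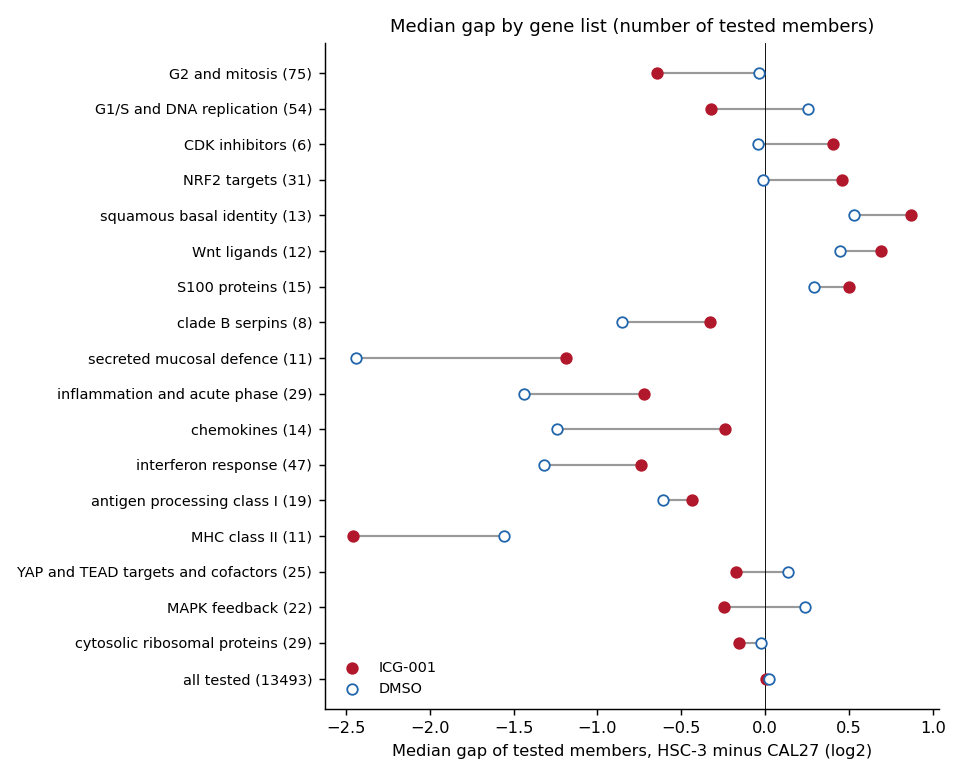
Filled circles give the median gap of each list's tested members on ICG-001 and open circles that on DMSO (HSC-3 minus CAL27, log2), with the number of tested members in brackets. The medians of both cell cycle lists lie lower on ICG-001 than on DMSO, those of NRF2 targets and of the interferon, inflammation and secreted defence lists lie higher, and that of all tested is near 0 on both.

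Of 12 Wnt ligands, 7 were higher in HSC-3 on ICG-001 (58.3%, against 16.5% of all) and 0 lower, against 5 higher and 1 lower on DMSO. WNT10A widened (1.85 on ICG-001 and 1.03 on DMSO), WNT6 opened (1.16 and 0.39), and WNT7A narrowed (0.94 and 1.92). Of 20 receptors and antagonists, 7 stood higher (35.0%, against 16.5% of all) and 1 lower (5.0%, against 15.2%) in HSC-3 on ICG-001. For 4 the gap became more negative (20.0%, against 5.4%). The secreted antagonist SFRP5 narrowed (2.55 and 4.07), and the antagonist DKK3 closed (-0.36 and 1.00). For the 6 genes that the study named as Wnt targets, all 6 gaps became more negative. The study named them for their lower levels on ICG-001 in these samples, so this direction is not independent evidence. LEF1, a partner of β-catenin, read 4.38, 3.94 and 4.24 in HSC-3 and 2.64, 3.16 and 2.56 in CAL27 on ICG-001, and narrowed (1.40, against 2.59 on DMSO), although without HSC-3 DMSO replicate 1 the change missed the adjusted p (-1.16, limma adjusted p = 0.0101). LEF1 was under the array medians in both lines on ICG-001. DKK1 (0.14 and 0.81) and CCND2 (-0.05 and 1.04) closed, the F-box protein SKP2 opened with HSC-3 lower (-0.74 and 0.44), and CDK1 changed with no called gap (-0.56 and 0.11). WNT5B narrowed (0.78 and 1.84), but its gap on ICG-001 was lost without HSC-3 ICG-001 replicate 1 (0.66) or CAL27 ICG-001 replicate 1 (0.65), and its change was lost without any 1 of 8 arrays. The change for CDK1 was lost without any 1 of 9 arrays (limma adjusted p 0.0129 to 0.0226). CDK1 would read as opened without HSC-3 ICG-001 replicate 1 (gap -0.63) or CAL27 ICG-001 replicate 3 (-0.62).

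Among the study's genes of survival and proliferation, all 7 gaps became more negative. The study chose these genes, and the adhesion and stem-like genes that follow, on these samples, so their directions are not independent evidence. CCNE1, the cyclin of S-phase entry, read 3.90, 4.13 and 4.10 in HSC-3 and 7.18, 6.99 and 6.80 in CAL27 on ICG-001 and widened (-2.95, against -2.01 on DMSO). CDCA7 (-1.54 and -0.14), CDKN3 (-1.21 and -0.33), CCNB2 (-1.08 and -0.39) and CCNB1 (-1.04 and -0.18) opened, CCNE2 closed (0.45 and 1.77), and BIRC5, which encodes survivin, changed with no called gap (-0.44 and 0.32). The change for CDKN3 was lost without any 1 of 8 arrays (limma adjusted p 0.0106 to 0.0138). Among the adhesion genes CLDN1 (-0.43 and -1.71) and CLDN4 (-0.22 and -1.15) closed, ICAM1 narrowed (-0.80 and -1.64), and CLDN16 (-0.65 and -0.95) and CLDN9 (0.53 and 0.07) had no called change. CLDN9 was called on ICG-001 without HSC-3 ICG-001 replicate 3 (0.59) or CAL27 ICG-001 replicate 3 (0.61). The change for CLDN4 was lost without any 1 of 10 arrays (limma adjusted p 0.0118 to 0.0223). Of the stem-like markers, HELLS opened (-1.18 and -0.26), NR5A2 (0.89 and 1.97) and DNAJC6 (0.70 and 1.43) narrowed, KRT5 changed with no called gap (-0.06 and 0.56), a change that was lost without CAL27 DMSO replicate 1 (-0.55), and KRT14 had no called change (3.38 and 3.46, change -0.08, 95% interval -0.41 to 0.24). NR5A2 was under the array medians in both lines on ICG-001. The gap of β-catenin itself, CTNNB1, was 0.41 on ICG-001 and 0.60 on DMSO, that of CREBBP, the gene of CBP, was 0.13 and -0.12, and that of E-cadherin CDH1 was -0.40 and -0.76, none with a called change.

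Of 25 targets and cofactors of YAP and TEAD, 4 were higher and 9 lower in HSC-3 on ICG-001, against 7 and 7 on DMSO, and the gap became more negative for 9 and more positive for 2. CCN1 (-1.83 on ICG-001 and -0.89 on DMSO) and the cofactor WWTR1, or TAZ (-1.59 and -0.75), widened, and AXL closed (-0.17 and 0.63). VGLL1, a TEAD cofactor, narrowed, reading 7.30, 6.58 and 6.25 in HSC-3 and 4.68, 4.75 and 4.67 in CAL27 on ICG-001, and 9.69, 9.50 and 9.60 in HSC-3 and 5.33, 5.72 and 5.39 in CAL27 on DMSO. Of 22 MAPK feedback genes the gap became more negative for 7 (31.8%, against 5.4% of all) and more positive for 3 (13.6%, against 6.83%), with 6 closed and 3 narrowed. The phosphatase DUSP6 (0.47 and 1.36) closed, and SPRY4 (1.15 and 2.69) and ETV4 (0.75 and 1.90) narrowed, all from a higher level in HSC-3, while DUSP1 (-0.39 and -2.15) and EGR1 (-0.57 and -1.68) closed from a lower one. By contrast, of 29 cytosolic ribosomal proteins 1 was higher and 2 lower on ICG-001, and the gap changed for 1.

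Some neighbouring genes were separated together. In runs of at least 5 tested genes next to one another in the RefSeq order, called the same way on ICG-001, 56 runs held 349 genes, 33 runs higher and 23 lower in HSC-3, which is 8.59% of the calls among placed genes. In most runs the gap was alike on both treatments. The longest, of 14 genes between C3orf33 and PTX3, had a median gap of -1.08 on ICG-001 and -1.52 on DMSO and was called the same way on DMSO for all 14. Runs whose median gap lay far apart between treatments were the 5 genes between ZSWIM4 and MIR23A (1.66 and 0.27), the 8 between CLEC2B and MAGOHB, with lectin-like receptor genes such as OLR1 and KLRC3 (1.26 and 0.06), and the 5 between ADAM15 and SLC50A1, with the ephrins EFNA1, EFNA3 and EFNA4 (1.02 and 0.07). Apart from ZSWIM4, the run that ends at MIR23A holds MIR23AHG and the hairpins it hosts, so its members are not independent. All runs were looked for after the values were seen.

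The arrays with β-catenin knocked down gave a second readout in HSC-3, normalized apart from the drug arrays. CTNNB1 itself differed by -3.06 on the log2 scale between CTNNB1 siRNA and control siRNA (limma adjusted p = 0.000252), and 3 of 12682 probesets were called (0.0237%), a count that was 1 without any single siRNA array, without the intensity filter or with the replicate block. Of 1480 genes with a changed gap that were tested there, 0 were called by limma, and 275 had an unadjusted p under 0.05 (18.6%), against 1615 of all 12682 (12.7%). With 3 calls in all, the 0 carries little information. No difference between these readouts was tested. The study itself ranked genes on these arrays and reported that genes raised or lowered by ICG-001 were skewed the same way on β-catenin knockdown.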

How the data were processed

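Per the labels and the study's methods, the deposited values are log2 expression levels that the authors made by robust multi-array averaging (RMA) with affy 1.36.1 under R 2.15.1, using a probe annotation by Entrez gene, from 1-colour Affymetrix Human Gene arrays of whole-well RNA. RMA subtracts background and forces all arrays of a run to 1 distribution, so a shift of all genes in a line would not be seen. The number of arrays limits the precision. Drug and siRNA arrays were normalized apart and were fitted apart. No genome build of the array annotation is given in the sources used here.

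Of 23786 probesets, 22458 had 1 gene symbol and 1328 had none. The 12 drug arrays were fitted by cell line and treatment with limma 3.58.1 in R 4.3.3, on the 13493 probesets that exceeded the median of at least 1 array. Calls needed a Benjamini-Hochberg adjusted p of at most 0.01 over all tested probesets and at least a 1.5-fold difference, and intervals are 95%. The scripts were tested on simulated data. The main fit did not pair the wells by replicate number. After group means were removed, the 18 correlations between same-numbered wells ran from -0.0961 to 0.18. The highest were between CAL27 on ICG-001 and CAL27 on DMSO, 0.18 for replicate 1 and 0.11 for replicate 3. Wells of different number were not compared, so these values cannot settle whether wells were paired.

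Named genes were the 15 largest gaps in each direction on ICG-001 whose arrays did not overlap, the 8 largest changes of gap in each class, up to 6 members of each list with the smallest adjusted p on ICG-001 with any member whose gap changed class, and the genes the study names with CTNNB1, CREBBP and CDH1. Provisional symbols, noncoding loci recognised by their symbol and genes of the Y chromosome were passed over, apart from microRNA loci and runs of neighbours, which were picked with their values known. Noncoding loci with other symbols, such as LUCAT1, were kept. The members and lists were chosen with earlier results of these data known. Alternatives changed the filter, the variance prior, the normalization, the array weights, the thresholds, the replicate block and the arrays included.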

Additional observations from a re-analysis of the deposited data

Results flagged for a closer look

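The gap between HSC-3 and CAL27 differed between ICG-001 and DMSO for 1650 probesets by the test of the difference itself in limma, and the values below are the gap on ICG-001 minus the gap on DMSO on the log2 scale, for the genes whose gap changed most. Among genes whose gap widened, the change was 2.27 for IL24, 2.11 for GPNMB, 2.07 for ADHFE1, -1.94 for EFEMP1, 1.92 for FLG, 1.85 for MFAP3L, -1.81 for LAPTM5 and 1.78 for SLITRK6. Among genes whose gap narrowed, it was 3.26 for SERPINB3, 3.18 for SERPINB4, 3.10 for PIP, 3.02 for OLFM4, 2.50 for CFB, 2.48 for SERPINA3, 2.41 for IDO1 and -2.35 for OLFML3. Among genes whose gap opened, it was 3.83 for AKR1C2, 2.92 for KLRC4-KLRK1, 2.79 for WNT4, 2.75 for CYP1A1, 2.71 for H2BC18, 2.68 for AKR1B15, 2.51 for RDH10 and 2.29 for MUC1. Among genes whose gap closed, it was 4.01 for SAA2, 3.62 for S100A7, 2.84 for LUCAT1, 2.65 for S100A8, 2.46 for CXCL2, 2.36 for LCN2, 2.36 for TNIP3 and 2.15 for NR4A1. Among genes whose gap reversed, it was 4.73 for AGR2, 4.51 for S100A7A, 4.09 for SERPINB13, 3.04 for KRT15, 2.90 for PGLYRP4, 2.90 for MMP13, 2.77 for ELF3 and 2.69 for KLRC3.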

How the results depend on the processing

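Leaving out single arrays, changing the filter, the prior or the normalization, and weighting arrays kept every count of called gaps, of changed gaps and of each class within 1.5 times its value, and the thresholds alone moved them further. At an adjusted p of at most 0.05 with no fold threshold, 4462 probesets were higher and 4303 lower in HSC-3 on ICG-001, 4452 were higher and 4204 lower on DMSO, and 4155 gaps changed, with 921 widened, 777 narrowed, 1024 opened, 946 closed and 455 reversed. With 0.01 and at least 2-fold, 910 were higher and 896 lower on ICG-001, 755 higher and 973 lower on DMSO, and 541 gaps changed, with 45 widened, 50 narrowed, 153 opened, 159 closed and 10 reversed. With the replicate number as a block, 1641 gaps changed, and 1 probeset was called for CTNNB1 siRNA in place of 3, as without the intensity filter and without each siRNA array in turn (1 to 1), while 12 passed at 0.05 with no fold threshold. Refits were run for the genes of the largest gaps, of the largest changes in each class and of the study's lists, not for other list members or microRNA loci. Among these genes the replicate block ended the call of the change for CLDN4 and no other. Over them and the alternatives, the call of the gap on ICG-001, or its absence, was kept in 1956 of the refits, with a call lost in 3 and gained in 10. For the change, the call or its absence was kept in 1785, with a call lost in 64 and gained in 13. Genes that stayed uncalled count as kept, so these counts do not measure how firm the calls are. Signs turned only for values near 0. The change of gap without single arrays ran from -0.2683 to 0.1257 for KRT19, from -0.0725 to 0.5006 for TRIML2, from -0.2072 to 0.056 for CLCA2, from -0.2941 to 0.1313 for SLC38A5 and from -0.2251 to 0.0154 for KRT14. With array weights the change for SLC38A5 was 0.1655, and with cyclic loess the gap of KRT5 on ICG-001 was 0.0635. Low levels near the array floor limit the folds of the widest gaps. The causes were not tested.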

Other observations

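Of 16 tested genes of epithelial adhesion and splicing, the gap changed for 0 by limma, and the median gap was 0.04 on ICG-001 and -0.08 on DMSO. Of 48 ATF4 targets, 8 were higher (16.7%, near the 16.5% of all) and 15 lower (31.2%, against 15.2%) in HSC-3 on ICG-001. On DMSO 4 were higher and 15 lower. The gap became more positive for 11 (22.9%, against 6.83%) and more negative for 3 (6.25%, near the 5.4% of all). Of 19 ABC transporters, 8 were higher (42.1%, against 16.5% of all) and 1 lower (5.26%, against 15.2%) on ICG-001. On DMSO 6 were higher and 2 lower, and 5 gaps became more positive (26.3%, against 6.83%). Of 18 HOX genes, HSC-3 was above CAL27 for 6 (33.3%, against 16.5% of all) and under it for 3 (16.7%, near the 15.2% of all) on ICG-001. On DMSO 2 were higher and 5 lower, and 2 gaps became more positive (11.1%, against 6.83%).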
